A study of Mus musculus with 11 samples.

Results

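Mouse hearts that had lost Cd36 through Tie2-cre were compared, over all genes, with hearts that had lost it through MHC-cre. The comparison rests on 3 libraries of each kind, chosen by their titles, which are 6 of the 11 libraries of the series. Within a group the libraries are numbered 1 to 3 (replicates 1 to 3 in the plots), and values are given in that order. The first group is called EC KO here (endothelial Cd36 knockout, Cd36 loxp with Tie2-cre) and the second CM KO (cardiomyocyte Cd36 knockout, Cd36 loxp with MHC-cre). Every group of the series carries the Cd36 loxp background, and the hearts without Cre were not used in any test below, so a difference does not say which of the knockouts departed from a heart with intact Cd36. The tissue is heart, and the RNA is total RNA cleared of ribosomal RNA and sequenced with its strand kept. The labels give no age, strain of origin or sex, do not say which myosin heavy chain promoter drives MHC-cre, do not say whether 1 library is 1 animal, and name no group with Cre alone. Tie2-cre is also active in blood-forming cells, so macrophages of the heart can carry the EC KO deletion. Library numbers in the titles lie apart for the 2 groups, and any difference in time or handling between the groups cannot be told apart from the genotype.

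Cd36 is a membrane protein that takes up long-chain fatty acids, the main fuel of the adult heart. In the heart it sits on capillary endothelial cells, which fatty acids must cross first, and on cardiomyocytes, which oxidise them. The stated aim of the mouse lines was to follow what endothelial Cd36 does to lipid and glucose metabolism. Hearts under load or with failing energy supply are known to bring back fetal genes such as those of the natriuretic peptides and the beta myosin heavy chain, to lay down collagen, and to lower genes of mitochondrial oxidation. The gene groups below are set in that order: Cd36, stress genes of the cardiomyocyte, matrix and its cells, metabolism, endothelium, and other responses.

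Values are normalized read counts as the authors deposited them. A difference is the log2 of the value plus 1 in CM KO minus that in EC KO, given with its SE from limma, so a positive difference is a higher level in CM KO. The added 1 understates the difference of genes with low values. A gene passed where its p, adjusted by Benjamini-Hochberg over the 13021 genes tested, was under 0.05. These p-values measure the spread between libraries, which may be technical in part. Recovered reads ranged from 15582950 to 20105673 in 5 libraries, whereas EC KO library 1 held 2268403. In that library 3 reads, the limit that a count of 0 allows, stand at 18.1, against 1.94 to 2.65 in the others, so its low values are coarse, and all such limits cover counting error only. On the first principal component, with 60.8% of the variance, the EC KO libraries lay at -52.3, -23.4 and -21 and the CM KO libraries at 51.1, 19.1 and 26.5. Library 1 of each group therefore lay farthest out, and CM KO library 1 was the highest of its group in 75.6% of the genes higher in CM KO and the lowest in 73.6% of those lower. Over all genes tested it was the highest or lowest of its group in 78.7%. That share counts both ends, so it is not a like baseline for the 75.6% and 73.6%, which count 1 end each.

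Cd36 itself (chr5:17781690-17888959 in RefSeq on mm10) read 30308, 27804 and 25758 in the EC KO libraries and 15792, 21610 and 21363 in the CM KO libraries. All 3 CM KO values lay under all 3 EC KO values, with means of 19589 ± 3290 and 27957 ± 2278 (SD, n = 3), and the lowest was CM KO library 1. The difference of -0.52 ± 0.15 did not pass (limma, adjusted p = 0.0529). It passed with edgeR and DESeq2 (-0.51 with each), with library weights (-0.39) and without CM KO library 1 (-0.38). A value adds up reads from every heart cell and every exon, so fewer cells of a type and less RNA per cell cannot be told apart, here or below, and the deleted part of the gene is not seen.

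Between the 2 kinds of knockout, 1847 of 13021 genes passed (14.2%), of which 1044 were higher in CM KO (8.02% of genes tested) and 803 lower (6.17%). Every count of a gene list below stands beside these shares. The higher genes differed more: of the 646 that differed by at least 1 on the log2 scale, 509 were higher in CM KO and 137 lower, and of the 125 that differed by at least 2, 102 were higher and 23 lower. Group ranges did not overlap for 5047 genes (38.8%), among them all 1847 that passed. The median difference over all genes was 0.00. It was 0.13 when libraries were rescaled by their totals and 0.15 when rescaled by their upper quartiles, and the split then moved to 1585 higher and 521 lower, and to 1449 higher and 278 lower. Differences are reported on the authors' scaling, so a shift of that size in all genes is a limit on every small difference below. Leaving out 1 library gave between 751 and 1949 genes: 988 without EC KO library 1, 751 without EC KO library 2, 1170 without EC KO library 3 and 910 without CM KO library 3. Lost calls of single genes are given below for libraries left out, and for other alternatives only in places. Upper-quartile rescaling kept 145 of 190 named calls.

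**Figure D1:**
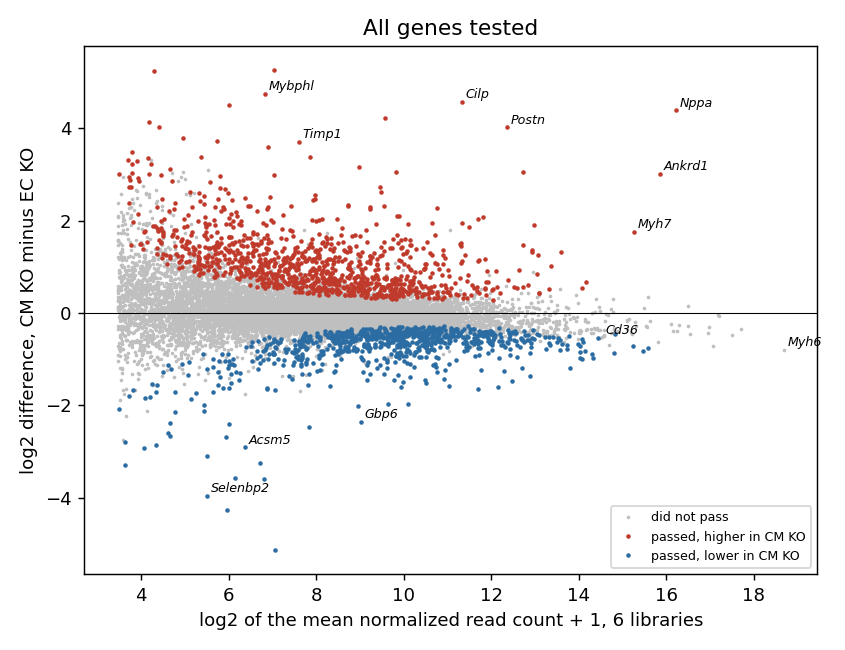
Difference between CM KO and EC KO (vertical axis, log2) against mean normalized read count (horizontal axis, log2) for the 13021 genes tested, 1 point per gene. Red points are the 1044 genes that passed and were higher in CM KO, blue points the 803 that were lower, and grey points did not pass; the red points reach farther from 0 than the blue.

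The largest differences of highly read cardiomyocyte genes were those of stress genes. Nppa, which encodes atrial natriuretic peptide, a hormone that ventricles make again under load, read 5317, 6786 and 8120 in EC KO and 215750, 105984 and 116782 in CM KO. The lowest CM KO library was far above the highest EC KO library, and the difference was 4.38 ± 0.27 (limma, adjusted p = 0.0002). In CM KO library 1 Nppa was the most abundant gene of all, with 1.79% of the reads, a place that Myh6 held in the other 5 libraries. Mybphl, a myosin-binding protein related to Mybpc3 and found mainly in atria, read 6.04, 9.20 and 6.19 and 267, 164 and 227. The EC KO values of Mybphl were low, the CM KO libraries were alike, and the difference was 4.75 ± 0.28 (adjusted p = 0.00018).

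The 150 bases ahead of the annotated start are shown for Mybphl and Nppa, the cardiomyocyte genes with the largest differences, and for Cilp, the matrix gene with the largest difference. They come from RefSeq on the GRCm38.p6 build, all on the plus strand, at chr3:108364761-108364910 for Mybphl, chr4:148000572-148000721 for Nppa and chr9:65265030-65265179 for Cilp. Capitals mark GATAA or its complement TTATC, the core of sites for GATA factors, and TATAAA, 1 form of the TATA box.
Mybphl: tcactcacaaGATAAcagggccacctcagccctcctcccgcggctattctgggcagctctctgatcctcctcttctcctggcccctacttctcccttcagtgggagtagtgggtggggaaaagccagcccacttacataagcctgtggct
Nppa: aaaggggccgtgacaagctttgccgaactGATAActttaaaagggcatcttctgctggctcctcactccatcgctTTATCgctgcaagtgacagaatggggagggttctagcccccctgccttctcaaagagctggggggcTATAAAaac
Cilp: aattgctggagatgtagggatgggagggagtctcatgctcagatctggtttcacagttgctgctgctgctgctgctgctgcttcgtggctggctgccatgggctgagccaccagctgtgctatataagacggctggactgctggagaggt
GATAA was found at 2 places in the Nppa window, 1 in that of Mybphl and 0 in that of Cilp, and TATAAA at 1, 0 and 0 places. Other forms of the TATA box were not searched, so the tatataa near the end of the Cilp window is neither marked nor counted. Searched on both strands, GATAA occurs in 13.3% and TATAAA in 7.57% of the 32851 RefSeq windows of this length. CATTCC, the letters bound by TEAD factors (7.59% of windows), and the exact consensus of the CArG box bound by serum response factor (0.916%) were in none of the 3. Near matches, such as ctttaaaagg in the Nppa window for the CArG box, were not searched. None of the searched motifs overlapped another in these windows, and a match is a description of the letters only.

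Of 16 natriuretic and stress genes on the list, 10 were higher in CM KO and 1 lower, with a median difference of 1.20 against 0.00 over all genes. Nppb, which encodes brain natriuretic peptide, read 2526, 4966 and 6817 in EC KO and 9794, 11869 and 11405 in CM KO, without overlap (1.32 ± 0.30, adjusted p = 0.0216). Ankrd1, a nuclear and sarcomeric ankyrin repeat protein induced by stretch, read 7776, 12683 and 21096 and 125914, 96306 and 91570, also far apart (3.02 ± 0.32, adjusted p = 0.0017). Myh7, the slow beta myosin heavy chain, read 21190, 24179 and 10256 and 81559, 55449 and 44599. All CM KO libraries lay above the EC KO libraries for Myh7, and CM KO library 1 was the highest (1.75 ± 0.33, adjusted p = 0.0117). Skeletal actin, Acta1, read 7045, 7191 and 4055 and 12882, 8661 and 10896. Its difference of 0.85 ± 0.23 (adjusted p = 0.0375) did not pass without CM KO library 1 (0.72), CM KO library 3 (0.84), or any EC KO library (0.98, 0.998 and 0.58 in order), and that of Nppb not without CM KO library 3 (1.29) or EC KO library 2 (1.40). Mybpc2 (1.40 ± 0.16), the fast form of myosin-binding protein C, and Synpo2l (1.09 ± 0.17), a Z-disc protein, were higher in all CM KO libraries. The lower member was Csrp3 (-0.54 ± 0.14), a Z-disc sensor of stretch, whose call was lost without CM KO library 3 (-0.56) or any EC KO library (-0.60, -0.56 and -0.45). Gdf15, a stress hormone, had values of 0, 22.6 and 17.7 and 132, 69.9 and 27.8 and did not pass (3.09 ± 1.10, adjusted p = 0.0904); without EC KO library 1 the difference was 1.63, and without library 1 of both groups 1.11.

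**Figure D2:**
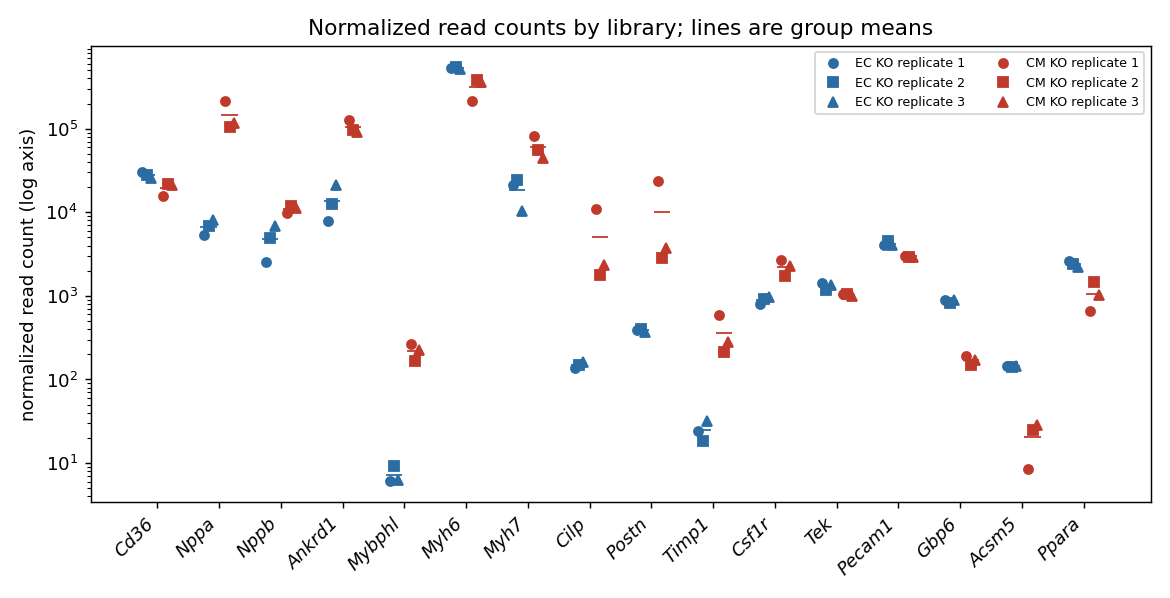
Normalized read counts (vertical log axis) of 16 genes in each library, with EC KO in blue and CM KO in red, symbols for the 3 libraries of a group and lines for the group means. The red points of Nppa, Ankrd1, Mybphl, Cilp, Postn and Timp1 stand above the blue without overlap, those of Gbp6, Acsm5 and Ppara stand below, and Cd36 and Myh6 are separated by less.

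Genes on the sarcomere list differed by -0.80 to 0.16. Some contractile genes were counted on the stress or atrial lists instead. Of those, Myh7 (1.75), Acta1 (0.85), Mybpc2 (1.40), Mybphl (4.75) and Csrp3 (-0.54) passed, whereas the light chain Myl4 did not. None of 20 sarcomere genes passed with limma or edgeR (median -0.17), 5 were lower with DESeq2 and 3 were lower without CM KO library 1, and 2 had an unadjusted p under 0.05. Differences of 17 of the 20 were below 0. Myh6, the alpha myosin heavy chain that dominates the adult mouse heart, read 531105, 553308 and 516784 and 212624, 378362 and 358812. The CM KO libraries of Myh6 lay below all EC KO libraries but far from each other, and the difference of -0.80 ± 0.35 did not pass (adjusted p = 0.153), though it did without CM KO library 1 (-0.53). Myh6 and Myh7 are close copies side by side on chromosome 14, and how shared reads were assigned is not given in the sources used here. The calcium pump Atp2a2 read 241380, 234337 and 243864 and 161867, 211224 and 194509 and did not pass (-0.35 ± 0.25, adjusted p = 0.363). Of 16 genes of the sarcoplasmic reticulum and calcium cycling, 3 were lower in CM KO and 0 higher (median -0.31), beside 6.17% and 8.02% of all genes. Those were Itpr2 (-0.57 ± 0.12), an inositol trisphosphate receptor, Cacna1c (-0.70 ± 0.19), the pore of the L-type calcium channel, and Hrc (-0.84 ± 0.24), a calcium-binding protein of the reticulum. Without CM KO library 3 none of them passed, and none but Itpr2 passed when any EC KO library was left out. Leaving out CM KO library 1 took Cacna1c to -0.46 and Hrc to -0.52. Hrc also did not pass with edgeR, no filter or upper-quartile rescaling, nor Cacna1c with that rescaling.

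Ion channels moved in both directions: of 23, 7 were higher in CM KO and 4 lower (median 0.11), beside 8.02% and 6.17% of all genes. Kcnq1, the pore of the slow delayed rectifier, read 465, 455 and 366 in EC KO and 1215, 895 and 964 in CM KO. It was higher in every CM KO library (1.25 ± 0.14, adjusted p = 0.00211), as was Kcnh2 (0.48 ± 0.08), of the rapid delayed rectifier. Kcnd3, which carries transient outward current, read 344, 299 and 333 and 184, 223 and 186 and was lower (-0.72 ± 0.13, adjusted p = 0.0094). Kcnc1 was lower too (-1.62 ± 0.31), but not without EC KO library 2 (-1.49). Without CM KO library 3 the channel counts were 3 higher and 3 lower, without EC KO library 1 they were 4 and 3, and without EC KO library 2 they were 4 and 2. Among 17 receptors and enzymes of adrenergic, angiotensin, endothelin and natriuretic signalling, 2 were higher and 1 lower (median 0.17). These counts are near the 8.02% and 6.17% of all genes. Agtr1a, the angiotensin II receptor, read 725, 719 and 671 and 1198, 1140 and 1207, a tight separation of 0.74 ± 0.08 (adjusted p = 0.00211). The angiotensin-converting enzyme gene Ace was higher by 0.82 ± 0.24 and the adrenergic receptor gene Adra1a lower (-0.65 ± 0.18). Calls for Ace and Adra1a were lost without CM KO library 3 (0.87 and -0.57) or any EC KO library (0.80, 0.85 and 0.82 for Ace; -0.73, -0.60 and -0.63 for Adra1a). Ace was 0.51 and still passed without CM KO library 1, while Adra1a did not (-0.51). Adra1a also did not pass with edgeR, no filter, either rescaling or library 1 of both groups left out. Ace did not pass with no filter or a pseudocount of 0.5.

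Markers of the heart's chambers were set beside Nppa and Mybphl, since both are also atrial genes. Of 13 atrial markers, 10 could be tested and 3 passed, all higher in CM KO: Nppa, Mybphl and Dkk3, the last not without EC KO library 2 (2.30). The defining atrial light chain Myl7 read 0, 2.51 and 31.8 in EC KO and 7.71, 3.24 and 6.54 in CM KO. Sarcolipin (Sln) read 0, 0.836 and 12.4 and then 0, 0.648 and 0, and Bmp10, an atrial growth factor, was at 0 in the EC KO libraries and at most 1.64 in the CM KO libraries. These 3 genes had means under 10 and were not tested, and Myl7 and Sln were highest in EC KO library 3. The other atrial light chain, Myl4, did not pass (0.39 ± 0.55, adjusted p = 0.667). None of 7 ventricular markers passed with limma or edgeR (median -0.32), 3 had an unadjusted p under 0.05, and 3 were lower with DESeq2. The summed ventricular markers were 344960 to 386680 in EC KO and 229540 to 318760 in CM KO. Among 16 general cardiomyocyte markers 3 were lower and 0 higher (median -0.47), and their summed level was 1546100 to 1606600 in EC KO and 908830 to 1291300 in CM KO, lowest in library 1. The 3 lower markers became 9 without CM KO library 1 and 0, 1 and 1 without EC KO libraries 1, 2 and 3.

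Genes of the extracellular matrix were higher in CM KO in large part. Of 18 collagen genes, 15 were higher in CM KO and 0 lower (median 1.76), beside the 8.02% of all genes that were higher. Col3a1, a fibrillar collagen of the stroma, read 1366, 1080 and 1185 in EC KO and 24180, 5794 and 7087 in CM KO. All CM KO libraries were above the EC KO libraries, and library 1 stood far above the other CM KO libraries (3.05 ± 0.44, adjusted p = 0.00449). Col1a1, the main fibrillar collagen, read 459, 579.5 and 561 and 5181, 1672 and 1971 with the same order (2.28 ± 0.35, adjusted p = 0.00604). Col14a1 (3.16 ± 0.36) and Col8a2 (3.38 ± 0.69) had the largest differences of the list. Col15a1 (1.42 ± 0.22) and Col6a3 (1.42 ± 0.23) were more even: Col6a3 read 187, 186 and 351 and 627, 675 and 558, with library 1 between the other CM KO libraries. The basement membrane chains Col4a1 (0.36 ± 0.19) and Col4a2 (0.43 ± 0.16) did not pass, nor did Col5a3 (0.15 ± 0.13). Leaving out 1 library gave 10 to 15 collagen genes, with the fewest without EC KO library 2, and Col8a2 then stood at 3.39 and did not pass.

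Among 27 matricellular and crosslinking proteins, 17 were higher in CM KO and 0 lower (median 1.52). Postn, which encodes periostin, a protein of activated fibroblasts, read 393, 405 and 372 in EC KO and 24012, 2831 and 3723 in CM KO. Values were even in EC KO, while CM KO library 1 stood far above the other CM KO libraries, which were themselves above all EC KO libraries (4.02 ± 0.65, adjusted p = 0.00695). Cilp, cartilage intermediate layer protein, read 139, 147 and 162 and 10971, 1777 and 2349, with the same outlying library (4.58 ± 0.55, adjusted p = 0.00254). Ltbp2, a microfibril protein, read 48.3, 48.5 and 52.2 and 3444, 419 and 577 (4.22 ± 0.64, adjusted p = 0.00546). Tnc, tenascin C, read 0, 9.20 and 11.5 and 183, 84.8 and 93.2, so that it was scarce in EC KO and present in each CM KO library (4.50 ± 0.85, adjusted p = 0.012). With library 1 of both groups left out, Tnc stood at 2.99. The difference was 3.05 ± 0.45 for Wisp2, 1.52 ± 0.23 for fibrillin 1 (Fbn1) and 1.61 ± 0.24 for the crosslinking enzyme Loxl1. The count of 17 fell to 11 without EC KO library 1 and to 11 without EC KO library 2.

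Matrix proteases and their inhibitors differed by member: 7 of 22 were higher in CM KO and 1 lower (median 0.53). Timp1, an inhibitor of matrix metalloproteinases induced by injury, read 24.2, 18.4 and 31.8 in EC KO and 583, 216 and 284 in CM KO. Every CM KO library was well above the highest EC KO library (3.71 ± 0.35, adjusted p = 0.00126). Timp4, the inhibitor typical of heart muscle, read 1450, 1391 and 1534 and 555, 899 and 643 and was lower (-1.09 ± 0.16, adjusted p = 0.0049). Timp2 (1.12 ± 0.18) and the proteases Mmp2 (1.26 ± 0.24) and Mmp23 (2.04 ± 0.26) were higher. Of 13 tendon and cartilage matrix genes, 6 could be tested and 5 were higher, among them Prg4, lubricin, with 229.6, 219.9 and 209 and 2340, 633 and 891 (2.32 ± 0.38, adjusted p = 0.00779). Comp read 24.2, 30.1 and 15.9 and 1076, 80.3 and 167, and its difference of 3.37 ± 0.77 was lost without EC KO library 1 (3.42), 2 (3.57) or 3 (3.13). The count of 5 became 2 without any 1 of the EC KO libraries.

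**Figure D3:**
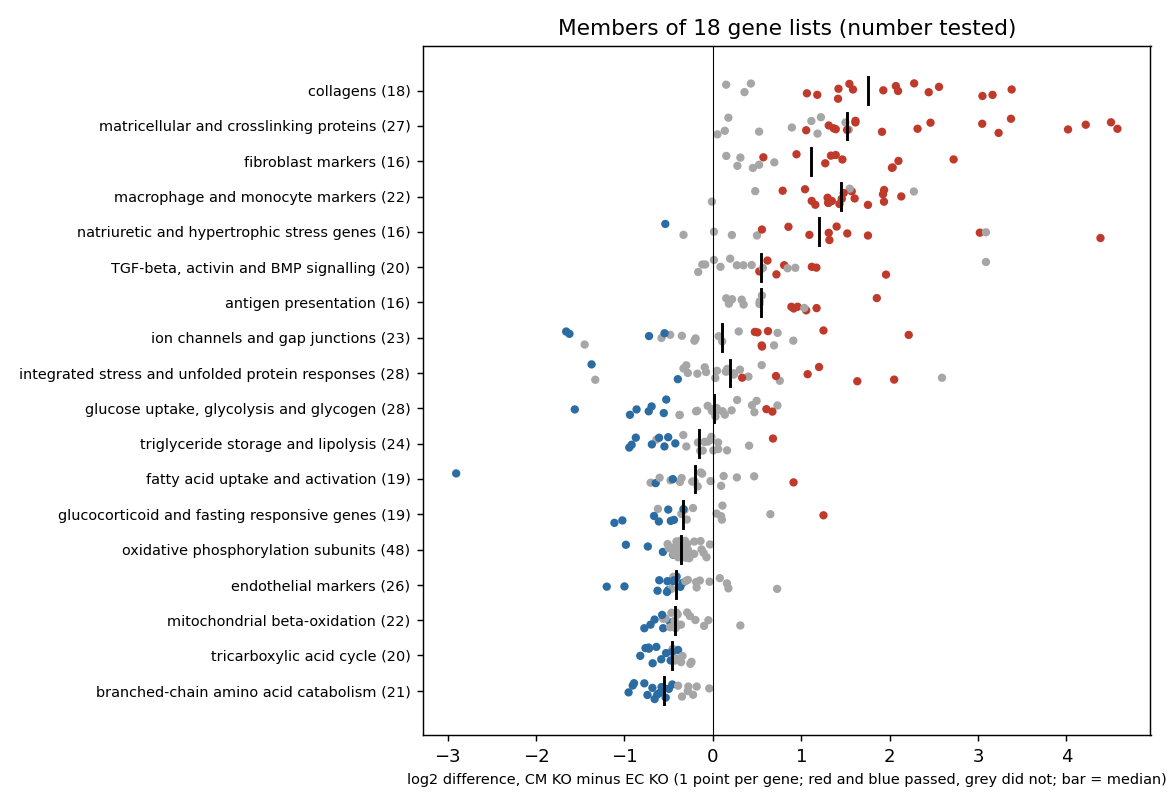
Difference between CM KO and EC KO (log2, horizontal axis) of the members of 18 gene lists, 1 point per gene, with a bar at the list's median and the number tested in brackets. Red points passed and were higher in CM KO, blue points passed and were lower, and grey points did not pass; 15 of 18 collagens and 18 of 22 macrophage markers are red, and 14 of 21 genes of branched-chain amino acid catabolism are blue.

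Secreted regulators of the matrix followed. Of 20 genes of TGF-beta, activin and BMP signalling, 7 were higher in CM KO and 0 lower (median 0.55). Tgfb2, a ligand, read 229.6, 225 and 271 in EC KO and 581, 453 and 549.6 in CM KO, even in both groups (1.12 ± 0.13, adjusted p = 0.00234). Tgfb1 was higher by 0.62 ± 0.13, a call lost without EC KO library 1 (0.52) or 2 (0.63). Ltbp1, which binds latent TGF-beta, was higher (0.53 ± 0.10), as was Fstl1 (1.96 ± 0.31), a secreted follistatin-like protein. None of the 3 TGF-beta receptor genes passed, with differences of -0.17 for Tgfbr1, 0.35 for Tgfbr2 and 0.20 for Tgfbr3, though Tgfbr2 did without CM KO library 2 (0.50). The count of 7 was 4 without CM KO library 3, 3 without EC KO library 1 and 4 without EC KO library 2. Secreted Wnt modulators split: of 7 tested, 4 were higher and 1 lower. Sfrp2 read 6.04, 24.3 and 15.9 and 444, 80.9 and 145 (3.60 ± 0.63, adjusted p = 0.00929), whereas Wif1, Wnt inhibitory factor, read 96.7, 92.8 and 45.1 and 2.31, 7.12 and 24.5 (-3.09 ± 0.66, adjusted p = 0.0183). Without EC KO library 2 only Sfrp2 kept a higher call of those 4, and Wif1 (-2.93) lost its call, as it did without EC KO library 1 (-2.90); without EC KO library 3 the count of 4 was 2.

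Markers of the cells that make matrix were higher as well. Of 16 fibroblast markers 10 were higher in CM KO and 0 lower (median 1.11), and their summed level was 41351 to 43601 in EC KO and 53869 to 71546 in CM KO. Cd248, endosialin, read 133, 155 and 126 and 781, 438 and 517 (2.03 ± 0.20, adjusted p = 0.00159), and Pi16 read 1396, 1243 and 1072 and 8339, 3577 and 4288 (2.03 ± 0.27, adjusted p = 0.00355). Pdgfra, the receptor that defines cardiac fibroblasts, and Tcf21, a fibroblast transcription factor, did not pass (0.28 ± 0.14 and 0.45 ± 0.16). No defining fibroblast marker was at 0 in any group. Whether the matrix genes differed beyond the share of these cells was not tested. Acta2, smooth muscle actin, which myofibroblasts also make, read 1154, 1049 and 976 and 2925, 2572 and 2704. Both groups were tight for Acta2 (1.37 ± 0.10, adjusted p = 0.000274), while the smooth muscle myosin Myh11 did not pass (0.04 ± 0.27). Among 15 pericyte and smooth muscle markers 2 were higher and 4 lower (median 0.05). The pericyte marker Rgs5 was lower, at 3885, 4234 and 3875 in EC KO and 2601, 2666 and 2477 in CM KO (-0.63 ± 0.08, adjusted p = 0.00366), and Cspg4 higher (0.79 ± 0.11). The 4 lower genes were 2 without CM KO library 1, 2 without CM KO library 3, 2 without EC KO library 1, 1 without EC KO library 2, and 2 and 1 under library-total and upper-quartile rescaling.

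Macrophage markers were higher in CM KO almost throughout. Of 22, 18 were higher in CM KO and 0 lower (median 1.44), and the summed level was 5672 to 6556 in EC KO and 11138 to 20516 in CM KO. Csf1r, the receptor for macrophage colony-stimulating factor, read 792, 924 and 974 and 2714, 1717 and 2276 (1.30 ± 0.16, adjusted p = 0.0028). Complement C1qb read 435, 470.0 and 535 and 2102, 1059 and 1293 (1.57 ± 0.22, adjusted p = 0.00413), with library 1 the highest again. Lgals3, galectin 3, read 60.4, 46.8 and 48.6 and 393, 170.3 and 181, a larger gap (2.13 ± 0.30, adjusted p = 0.00417). Ccr2, found on monocyte-derived cells, was higher by 1.94 ± 0.31, and Mrc1 (1.16 ± 0.16) and Folr2 (1.31 ± 0.22), found on resident cells, were higher too. Resident markers Lyve1 (0.48 ± 0.23) and Timd4 (2.27 ± 0.82) did not pass, nor did Mertk (-0.01 ± 0.13) or Ly6c2 (1.55 ± 1.28). Leaving out any 1 library gave 14 to 18 members. Of 17 lymphocyte, granulocyte and mast cell markers, 15 had means under 10, and the list's summed level was 90.6 to 114 in EC KO and 101 to 125 in CM KO.

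Genes that present antigen on MHC class II were higher in CM KO, and those for class I did not pass. H2-Ab1 read 259.8, 289 and 286 and 565, 516 and 667 (1.06 ± 0.12, adjusted p = 0.00213). The invariant chain gene Cd74 read 834, 1040 and 927 and 1578, 1617 and 2000, without overlap (0.89 ± 0.12, adjusted p = 0.00399). In all, 6 of 16 antigen presentation genes were higher and 0 lower (median 0.54), all 6 of them class II genes. The class I genes H2-K1 (0.19 ± 0.16), H2-D1 (0.33 ± 0.20) and B2m (0.15 ± 0.18) did not pass. These class II genes are made by macrophages and dendritic cells, and the part of the macrophage markers above in their difference was not tested. Of 23 chemokine, cytokine and NF-kappaB genes tested, 5 were higher and 0 lower (median 0.80). The macrophage chemokine Ccl6 read 175, 152 and 229.9 in EC KO and 697, 405 and 509 in CM KO (1.51 ± 0.21, adjusted p = 0.00413), and Ccl9 was higher as well (1.68 ± 0.28). Ccl8 read 0, 14.2 and 21.2 and 103, 75.8 and 96.5 (3.72 ± 0.97, adjusted p = 0.0353), a call lost without any 1 of the CM KO libraries (3.63, 3.86 and 3.68) or EC KO library 2 (4.29), and a value that became 2.32 without EC KO library 1. The chemokine count was 3 without CM KO library 1, 3 without CM KO library 3 and 2 without EC KO library 2. Among 24 interferon-stimulated genes, 1 was higher and 1 lower (median 0.08). Ifit2 was higher (1.05 ± 0.14), and Gbp6 was lower, as described with the largest falls.

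**Figure D4:**
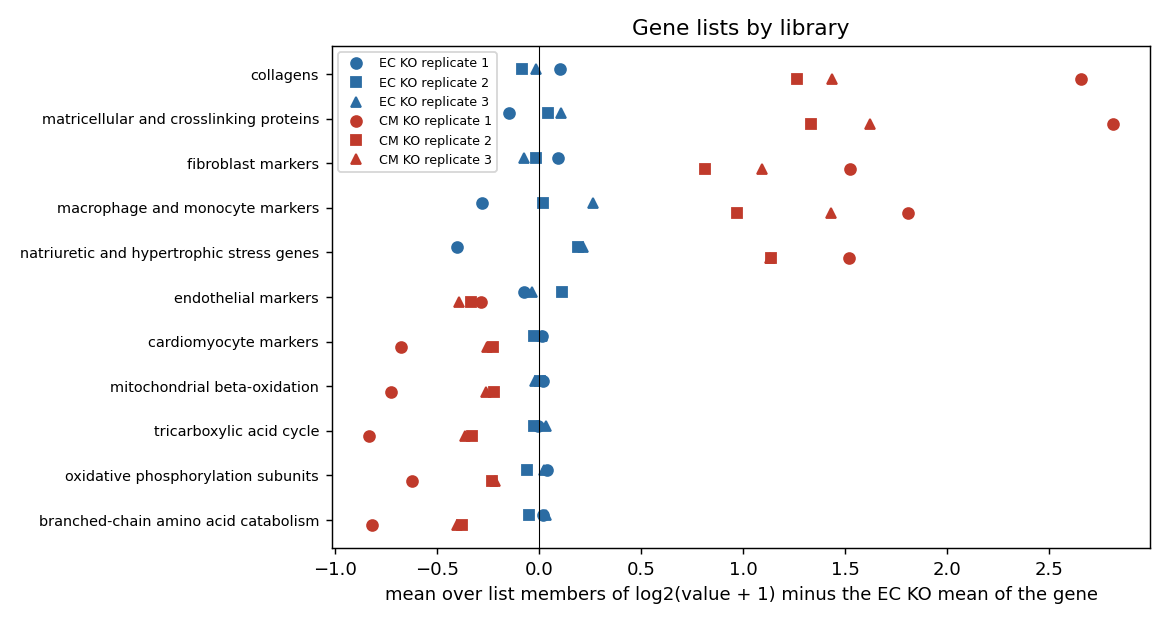
Mean over each list's tested members of the log2 value minus the gene's EC KO mean (horizontal axis), for 11 lists and each of the 6 libraries. EC KO libraries (blue) lie near 0, and CM KO libraries (red) lie to the right for collagens, matricellular proteins, fibroblast, macrophage and stress genes and to the left for endothelial, cardiomyocyte and mitochondrial genes, with CM KO library 1 (circle) farthest out in 10 of the 11 lists.

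Genes that handle fatty acids before their oxidation differed in some members. Of 19 genes of uptake and activation 1 was higher in CM KO and 3 lower (median -0.21), beside 8.02% and 6.17% of all genes. Acsm5, of the medium-chain acyl-CoA synthetase family, read 145, 142 and 143 in EC KO and 8.49, 24.6 and 28.6 in CM KO. Its EC KO values were nearly equal and far above every CM KO value (-2.90 ± 0.39, adjusted p = 0.00366). Gpihbp1, the endothelial protein that holds lipoprotein lipase in capillaries, read 2930, 2522 and 2229 and 1541, 1630 and 1708 and was lower (-0.65 ± 0.11, adjusted p = 0.0087). Lipoprotein lipase itself, Lpl, read 195194, 167728 and 149434 and 75853, 123179 and 121091. Those Lpl ranges did not overlap, yet the difference of -0.70 ± 0.26 did not pass (adjusted p = 0.1); without CM KO library 1 it was -0.47 and passed. Cav1, caveolin 1 of endothelial membranes, was lower (-0.45 ± 0.09), a call lost without CM KO library 3 (-0.46), EC KO library 1 (-0.42) or EC KO library 2 (-0.42). The receptor Lrp1 was higher (0.91 ± 0.15). The cytosolic carriers did not pass: Fabp3, of muscle, read 15668, 14916 and 14038 and 11874, 14754 and 14066, with overlap (-0.14 ± 0.12), and Fabp4, of endothelium and fat, read 15359, 13979 and 12778 and 11758, 12964 and 17047 (-0.03 ± 0.15). The sign of Fabp3 turned under upper-quartile rescaling and that of Fabp4 under both rescalings and without CM KO library 1 (0.09), CM KO library 2 (0.02) or EC KO library 1 (0.04).

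Targets of the PPAR receptors, which sense fatty acids, split: of 18 tested, 3 were higher in CM KO and 5 lower, with a median of -0.08 that turned to 0.05 under library-total and 0.07 under upper-quartile rescaling. Angptl4, a secreted inhibitor of lipoprotein lipase, read 659, 783 and 458 and 1250, 967 and 1545 and was higher (0.99 ± 0.21, adjusted p = 0.0182). Its call was lost without CM KO library 3 (0.83) or EC KO library 1 (1.04). Ucp2, an uncoupling protein also made by macrophages, read 1233, 1138 and 1286 and 3338, 2064 and 2407 (1.07 ± 0.16, adjusted p = 0.00526). Pdk4, the kinase that turns off pyruvate dehydrogenase in fasting, read 36477, 51477 and 25641 and 25392, 30452 and 43207, overlapping widely (-0.18 ± 0.27, adjusted p = 0.699), with its sign turned without EC KO library 2 (0.075). Ucp3 read 1384, 1529 and 582 and 1038, 1691 and 2107 and did not pass (0.53 ± 0.36), with values from 0.09 without EC KO library 3 to 0.82 without CM KO library 1. The lipid droplet protein Plin2, often used as a readout of lipid load, read 1668, 2128 and 1764 and 1803, 1607 and 1924 (-0.06 ± 0.11), with a sign that turned under both rescalings and without CM KO library 2 (0.02) or EC KO library 2 (0.05). Plin4, another droplet protein, read 10308, 9974 and 9149 and 4154, 6442 and 5735 and was lower (-0.87 ± 0.16, adjusted p = 0.00963). The 5 lower targets were 3 without CM KO library 3 and 1, 1 and 3 without EC KO libraries 1, 2 and 3.

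Triglyceride synthesis and storage held 8 lower genes and 1 higher among 24 tested (median -0.16). Dgat2, which makes the final step of triglyceride synthesis, read 7565, 9005 and 7921 and 3455, 4600 and 4752 (-0.95 ± 0.14, adjusted p = 0.00464). Lpin1, a phosphatidate phosphatase and coactivator, read 4127, 4659 and 4475 and 2059, 2323 and 2662 (-0.92 ± 0.11, adjusted p = 0.00254). In CM KO these genes stood at 52.3% and 53.1% of their EC KO level, with means of 8164 ± 750.3 against 4269 ± 709 and 4420 ± 270.4 against 2348 ± 302 (SD, n = 3). Cidea, a droplet protein of fat, was the higher member, with 375, 415 and 464 and 696, 679 and 629 (0.68 ± 0.11, adjusted p = 0.00673). Hormone-sensitive lipase, Lipe, did not pass (-0.02 ± 0.10). The count of 8 was 5 without CM KO library 3, 4 without EC KO library 1, 3 without EC KO library 2, 4 without EC KO library 3 and 3 under upper-quartile rescaling.

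In glucose metabolism the hexokinases differed in opposite directions. Hk1, the isoform prominent in the fetal heart, read 2882, 2891 and 3015 and 5096, 4478 and 4466 and was higher in CM KO (0.67 ± 0.09, adjusted p = 0.00356). Hk2, the insulin-regulated isoform of adult muscle, read 5136, 5086 and 4780 and 2415, 3272 and 2624 and was lower (-0.86 ± 0.12, adjusted p = 0.00403). Gys1, muscle glycogen synthase, read 3577, 4102 and 4900 and 1733, 2409 and 2450 and was lower (-0.94 ± 0.16, adjusted p = 0.0082). Slc2a4, the insulin-responsive glucose transporter, read 9172, 9974 and 9491 and 5652, 7008 and 6911 (-0.56 ± 0.11, adjusted p = 0.0147), and the basal transporter Slc2a1 read 465, 518 and 502 and 389.6, 311 and 332 (-0.53 ± 0.11, adjusted p = 0.0187). Slc2a4 lost its call without EC KO library 2 (-0.52), and Slc2a1 without EC KO library 2 (-0.49), EC KO library 3 (-0.52) or CM KO library 3 (-0.50). Upper-quartile rescaling also took the calls of both, and library-total rescaling that of Slc2a1. In all, 2 of 28 genes of glucose uptake, glycolysis and glycogen were higher and 7 lower (median 0.01), and the central glycolytic genes Gapdh (0.02 ± 0.39), Pgk1 (0.04 ± 0.10) and Ldha (-0.01 ± 0.09) did not pass. The count of 7 lower genes was 4 without EC KO library 1, 3 without EC KO library 2 and 4 under upper-quartile rescaling. Fbp2, of the reverse pathway, did not pass (0.49 ± 0.15, adjusted p = 0.0529). It passed with edgeR and DESeq2 (0.54 with each), library weights (0.61), a filter at 50 (0.49), library-total (0.62) and upper-quartile (0.64) rescaling, without EC KO library 1 (0.64) and without library 1 of both groups (0.70). Of 14 genes of pyruvate dehydrogenase and its regulators 2 were higher and 5 lower (median -0.39). Pdp2, the phosphatase that turns the complex on, read 538, 561 and 339.5 and 132, 251 and 229.8 (-1.25 ± 0.26, adjusted p = 0.0172), a call lost without EC KO library 1 (-1.15) or 2 (-1.12). The 5 lower genes became 3 without CM KO library 3, 0 without EC KO library 1, 0 without EC KO library 2, 2 without EC KO library 3 and 1 under upper-quartile rescaling.

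Mitochondrial oxidation genes leaned lower in CM KO, by less than the matrix genes leaned higher. Branched-chain amino acid catabolism had the most calls, with 14 of 21 genes lower and 0 higher (median -0.55), beside 6.17% of all genes. Dbt, a subunit of the branched-chain ketoacid dehydrogenase, read 2060, 1925 and 1802 and 783, 1166 and 1076 (-0.95 ± 0.14, adjusted p = 0.00546), and another subunit, Bckdhb, read 1142, 999 and 1086 and 432, 657 and 681 (-0.89 ± 0.16, adjusted p = 0.0113). Among 20 genes of the tricarboxylic acid cycle and the malate shuttle 11 were lower, and all 20 differences were below 0 (median -0.46). Of these, Got1, Got2 and Mdh1 belong to the shuttle and not to the cycle. Got1, the cytosolic aspartate aminotransferase of the malate shuttle, read 21184, 21722 and 26925 and 10647, 14496 and 14549 (-0.82 ± 0.16, adjusted p = 0.0134). Among 22 genes of beta-oxidation 6 were lower and 0 higher (median -0.43). Hadh, a hydroxyacyl-CoA dehydrogenase, read 12816, 12152 and 11732 and 5237, 8467 and 8217 (-0.78 ± 0.17, adjusted p = 0.0216), a call lost without EC KO library 1 (-0.74), 2 (-0.78) or 3 (-0.81). Cpt1b, the muscle carnitine palmitoyltransferase that admits fatty acids to mitochondria, did not pass (-0.42 ± 0.16). Of 48 subunits of oxidative phosphorylation 5 were lower, and all 48 differences were below 0 (median -0.37). Cox6a2, a heart and muscle subunit of cytochrome oxidase, read 24296, 21265 and 20824 and 8030, 12810 and 13526 (-0.98 ± 0.19, adjusted p = 0.0136), a call lost without EC KO library 1 (-0.91).

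These 4 counts depended on which library was left out and on the scaling. Without EC KO library 1, 2 or 3 in turn, the lower genes were 3, 4 and 4 for branched-chain amino acids. For the tricarboxylic acid cycle and malate shuttle they were 1, 1 and 1. They were 0, 0 and 0 for beta-oxidation and 0, 1 and 1 for oxidative phosphorylation. Without CM KO library 3 they were 9, 4, 2 and 3 in the same order, and without CM KO library 1 they were 14, 15, 11 and 12. Under upper-quartile rescaling they were 3, 1, 0 and 1, with medians of -0.41, -0.31, -0.29 and -0.22 that were still lower than the 0.15 of all genes. With DESeq2 they were 14, 16, 13 and 21. Mean list levels in CM KO library 1 were -0.82, -0.83, -0.73 and -0.63 from the EC KO mean, against -0.38, -0.33, -0.22 and -0.23 in library 2 and -0.40, -0.36, -0.26 and -0.22 in library 3. General cardiomyocyte markers had a median of -0.47, as given above, and the part of the share of cardiomyocyte RNA in these differences was not tested.

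Of 18 regulators of oxidative metabolism 4 were lower in CM KO and 0 higher (median -0.32). Ppara, the fatty acid receptor that drives oxidation genes, read 2586, 2392 and 2247 in EC KO and 662, 1464 and 1028 in CM KO, lowest in library 1 (-1.27 ± 0.23, adjusted p = 0.0114). Mlxipl, the glucose-sensing factor ChREBP, read 949, 733 and 689 and 366, 388 and 330.4, with even groups (-1.11 ± 0.13, adjusted p = 0.00254). Ppara and Mlxipl passed under each of the 17 alternatives. The count of 4 was 2 without CM KO library 3, 2 without any 1 of the EC KO libraries and 2 under upper-quartile rescaling. The coactivator Ppargc1a did not pass (-0.88 ± 0.29, adjusted p = 0.0768) except without CM KO library 2 (-1.15), with library 1 of both groups left out (-0.78) and in the fits with library weights or all 11 libraries, nor did Esrra (-0.12 ± 0.08), Esrrg (-0.41 ± 0.14) or Tfam (-0.21 ± 0.11).

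Endothelial markers, of the cells in which Tie2-cre deletes Cd36, were lower in CM KO than in EC KO in large part. Of 26 markers 14 were lower in CM KO and 0 higher (median -0.42), and the summed level was 45510 to 52333 in EC KO and 33279 to 35324 in CM KO. Aqp1, the water channel of capillaries, read 9619, 10549 and 8058 and 4166, 4157 and 3889 (-1.20 ± 0.11, adjusted p = 0.00126). Pecam1, the junction protein CD31, read 4048, 4554 and 4051 and 3022, 2959 and 2919, with even groups (-0.51 ± 0.09, adjusted p = 0.00884), and Flt1, a VEGF receptor, read 2169, 2257 and 2145 and 1343, 1671 and 1272 (-0.63 ± 0.11, adjusted p = 0.00954). Cadherin 5 (Cdh5) read 4816, 5190 and 4399 and 3812, 3379 and 3547 (-0.42 ± 0.10, adjusted p = 0.0227), and its call was lost without CM KO library 2 (-0.38), CM KO library 3 (-0.42), EC KO library 1 (-0.42) or EC KO library 2 (-0.36). Tek, whose promoter drives Tie2-cre, read 1414, 1189 and 1342 and 1055, 1054 and 990.4 (-0.34 ± 0.09, adjusted p = 0.0399), and passed when CM KO library 1 was left out but not with CM KO library 2 (-0.36), CM KO library 3 (-0.32) or any EC KO library left out (-0.29, -0.41 and -0.33). Library-total and upper-quartile rescaling each took the calls of Cdh5 and Tek, and upper-quartile rescaling that of Pecam1. Vwf (0.18 ± 0.12), Plvap (0.73 ± 0.22) and Emcn (0.16 ± 0.13) did not pass and had values above 0. The count of 14 was 9 without CM KO library 2, 5 without CM KO library 3, 7, 6 and 9 without EC KO libraries 1, 2 and 3, 6 under library-total and 3 under upper-quartile rescaling.

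Signals between muscle and vessel were mixed: of 17 genes of the VEGF, apelin, angiopoietin, Notch and heart-made FGF families 1 was higher in CM KO and 4 lower (median -0.24). Fgf16, a growth factor made by cardiomyocytes, read 42.3, 38.5 and 47.7 and 131, 148 and 125, well apart (1.63 ± 0.18, adjusted p = 0.00193). Apln, which encodes the vasodilator apelin, read 84.6, 103 and 69.8 and 33.2, 49.9 and 40.9 (-1.04 ± 0.24, adjusted p = 0.0219), a call lost without CM KO library 3 (-1.04), EC KO library 1 (-1.04) or EC KO library 2 (-0.90). Vegfa, the main vessel growth factor, read 4967, 4957 and 5139 and 3027, 4410 and 3274 (-0.51 ± 0.14, adjusted p = 0.037), and passed only when CM KO library 2 was the library left out. The 4 lower genes were 2 without CM KO library 1, 0 without CM KO library 3, 0 without EC KO library 2, 1 without EC KO library 3 and 1 under each rescaling.

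Hormone and clock genes were read because Fkbp5 and other glucocorticoid targets are known to follow stress and feeding. Of 19 such genes 1 was higher in CM KO and 8 lower (median -0.33). Cdkn1a, a cell cycle inhibitor, read 3438, 2831 and 3107 and 2226, 1392 and 1160 (-1.02 ± 0.21, adjusted p = 0.015), a call lost without EC KO library 1 (-0.95). Sesn1 read 4743, 5111 and 4236 and 2779, 3208 and 3231 (-0.61 ± 0.11, adjusted p = 0.00884). Fkbp5 itself read 1976, 2157 and 2201 and 2254, 1533 and 1702, overlapping, and did not pass (-0.22 ± 0.14, adjusted p = 0.295), though it did without CM KO library 1 (-0.39). The count of 8 was 3 without CM KO library 3, 1 without EC KO library 1, 2 without EC KO library 2, and 4 and 3 under library-total and upper-quartile rescaling. Arntl, the clock activator BMAL1, read 549.8, 513 and 593 and 392, 238 and 316 (-0.83 ± 0.17, adjusted p = 0.0156), and lost its call without EC KO library 1 (-0.83). Of 5 clock genes in phase with Arntl 3 were lower, and of 13 in the opposite phase 1 was higher (Bhlhe41, 0.87 ± 0.18, not without CM KO library 3, 0.72, or EC KO library 1, 0.87). The hour at which hearts were taken is not in the labels. The count of 3 was 2 without CM KO library 2, 1 without CM KO library 3, and 0, 1 and 2 without EC KO libraries 1, 2 and 3.

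Stress responses inside the cell went in both directions. Among 28 genes that answer amino acid shortage or unfolded proteins (the integrated stress and unfolded protein responses) 6 were higher in CM KO and 2 lower (median 0.20). Herpud1, a component of degradation at the endoplasmic reticulum, read 11909, 12420 and 8703 and 4574, 4205 and 3858 and was lower (-1.37 ± 0.14, adjusted p = 0.0017). Mthfd2, a mitochondrial folate enzyme, read 12.1, 26.8 and 33.6 and 153, 63.5 and 89.1 and was higher (2.05 ± 0.42, adjusted p = 0.0158), with 1.30 when library 1 of both groups was left out. The serine synthesis gene Psat1 was higher as well (1.20 ± 0.21). Without 1 library the count of 6 ranged from 3 to 4, with 4, 4 and 3 without CM KO libraries 1, 2 and 3 and 4, 3 and 4 without EC KO libraries 1, 2 and 3. Of 19 antioxidant and NRF2 response genes 2 were higher and 7 lower (median -0.18). Hmox1, heme oxygenase 1, read 1746, 2216 and 2266 and 1217, 517 and 683 (-1.45 ± 0.26, adjusted p = 0.0106). Nqo1, a quinone reductase, read 1861, 1580 and 1742 and 997, 1269 and 1190 (-0.59 ± 0.11, adjusted p = 0.0123), while Gpx1, glutathione peroxidase 1, was higher (0.66 ± 0.13). The count of 7 was 3 without CM KO library 3, 3 without EC KO library 2, 4 without EC KO library 3 and 3 under upper-quartile rescaling. Among 24 immediate early genes 6 were higher and 1 lower (median 0.23), with Myc at 90.6, 75.3 and 89.3 and 209, 152 and 164 (1.03 ± 0.17, adjusted p = 0.00801) and Junb at 163, 267 and 209 and 356, 561 and 463 (1.11 ± 0.21, adjusted p = 0.0118).

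Counts of other lists stand beside the 14.2% of all genes tested that passed. Of 22 cell cycle genes Ccnd1 was higher in CM KO (0.36 ± 0.09) and Rrm2 lower (-1.12 ± 0.22); Ccnd1 passed when CM KO library 2 was left out but with no other library left out, and Rrm2 did not without EC KO library 2 (-1.01). Mki67, the proliferation marker, did not pass (-0.52 ± 0.33). Among 16 targets of p53, Phlda3 was the 1 higher gene (1.17 ± 0.21), and Cdkn1a, Sesn1 and Trp53inp1 were the 3 lower, of which Sesn1 alone passed without EC KO library 1. In iron handling 2 of 12 genes were lower, with the exporter Slc40a1 at -0.56 ± 0.12, a call lost without EC KO library 1 (-0.57) or 3 (-0.50). Of 21 genes of sterol and fatty acid synthesis 3 were higher and 1 lower. The lower one was squalene synthase, Fdft1, which read 671, 705 and 721 and 267, 365 and 447 (-0.99 ± 0.17, adjusted p = 0.0086). The 3 higher genes were 1 without CM KO library 2, CM KO library 3, EC KO library 1 or EC KO library 2. Syt12, a synaptotagmin, was lower (-0.82 ± 0.16, adjusted p = 0.0142) but not without EC KO library 2 (-0.72). None of the tested erythroid (2), skeletal muscle (2), mesothelial (5) or nerve (5) markers passed with limma or edgeR (1 mesothelial marker had an unadjusted p under 0.05 in limma), DESeq2 called the skeletal myosin Myh2 lower (-5.25), as did limma without EC KO library 3 (-4.41), and all 8 adipocyte markers had means under 10.

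Of the largest falls, Wif1, Acsm5 and Gbp6 are members of lists above, and most of the others are not. Gbp6, an interferon-stimulated guanylate-binding protein on chromosome 5, read 900.3, 825 and 885 in EC KO and 194, 149 and 169 in CM KO. Both groups were tight and it had the lowest adjusted p of the genes named here (-2.35 ± 0.12, adjusted p = 0.000114). Its neighbour and close copy Gbp10 read 48.3, 41.0 and 38.9 and 4.63, 5.18 and 8.18 (-2.67 ± 0.35); reads shared by such copies may be split between them, so the pair is uncertain, and Gbp10 was chosen after its values were seen. Selenbp2, a selenium-binding protein with a close copy in Selenbp1, read 84.6, 72.8 and 94.6 and 1.54, 5.83 and 8.18 (-3.96 ± 0.47, adjusted p = 0.00254) and carries the same uncertainty. Rhd, of the Rh blood group family, read 169, 192 and 197 and 8.49, 25.3 and 29.4 (-3.25 ± 0.40, adjusted p = 0.00269), and Lrrc52, an auxiliary subunit of potassium channels, read 151, 134 and 103 and 3.86, 16.8 and 13.9 (-3.56 ± 0.46, adjusted p = 0.00328). In each of these genes the lowest library was CM KO library 1 except in Gbp6, where it was CM KO library 2, and the EC KO libraries did not approach the CM KO values.

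Further large falls were spread over genes of different kinds. Cdo1, which oxidises cysteine on the way to taurine, read 284, 313 and 568 and 64.8, 57.6 and 76.9 (-2.47 ± 0.25, adjusted p = 0.0017). Gnmt, which methylates glycine and so sets the supply of methyl groups, read 103, 93.7 and 126 and 16.2, 19.4 and 22.9 (-2.41 ± 0.23, adjusted p = 0.00142). Tmem52 read 90.6, 75.3 and 40.7 and 11.6, 19.4 and 17.2 (-1.99 ± 0.35). Calls less firm were those of Tmem150c (-2.67 ± 0.51, lost without EC KO library 2, -2.42), Gabrr2 (-2.13 ± 0.43, lost without EC KO library 1, -1.90) and Nlrp10 (-2.02 ± 0.54, lost without EC KO library 1, 2 or 3, -2.06, -2.02 and -1.98, and -1.22 without CM KO library 1). Nlrp10 also did not pass with DESeq2. Ptprn2, a phosphatase-like protein of secretory granules, had the largest fall (-5.13 ± 1.32, adjusted p = 0.0334), but its EC KO values were 332, 6.69 and 447. EC KO library 2 stood near the CM KO values of 0.771, 1.94 and 4.09, and the call was lost without any 1 of the other 5 libraries (-4.30 without EC KO library 1, -4.08 without EC KO library 3, and -4.76, -5.12 and -5.52 without CM KO libraries 1, 2 and 3).

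Among the largest rises outside the lists, Abhd1 read 0, 10.03 and 4.42 in EC KO and 49.4, 40.8 and 74.4 in CM KO (3.79 ± 0.78, adjusted p = 0.0159) and lost its call without CM KO library 3 (3.55). Its value of 0 in EC KO library 1 allows up to 18.1 at that library's depth.

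Genes often used to judge libraries were read last. Of 17 ribosomal protein genes 1 was higher in CM KO, Rpl3 (0.96 ± 0.25), and 0 lower (median 0.08); its call was lost without CM KO library 1 (0.75), CM KO library 3 (1.02), EC KO library 1 (0.73) or EC KO library 3 (1.02). Among 4 nuclear noncoding RNAs Meg3 was higher (0.83 ± 0.18) and Neat1 lower (-0.82 ± 0.22). Meg3 lost its call without EC KO library 2 (0.83) or 3 (0.75), and Neat1 without CM KO library 3 (-0.65) or any EC KO library (-0.79, -0.83 and -0.85). All 6 libraries held reads of the Y-linked genes, and Ddx3y read 1396, 1434 and 1193 and 749, 939.6 and 859.5, lower in CM KO (-0.66 ± 0.11, adjusted p = 0.00898), while Eif2s3y (-0.12 ± 0.15), Kdm5d (0.00 ± 0.11) and Uty (-0.30 ± 0.15) did not pass.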

How the data were processed

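Total RNA from mouse heart was sequenced, and 3 EC KO and 3 CM KO libraries of the series' 11 were compared. Per the submitters' processing notes, TopHat2, HTSeq 0.8.0 and DESeq2 (given as 3.5) were used with mm10; their settings are not given in the sources used here. The deposited values are a signal: read counts per gene that the authors divided by 1 factor per library. Whole reads were recovered by each library's smallest step, and every value lay within 6.65e-05 reads of a whole number. The table held 23420 rows, of which 5196 were at 0 in all 6 libraries, 27 had a date for a symbol and 2 symbols were repeated. No column of sample values was left without a sample.

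Genes with a mean of at least 10 over the 6 libraries (13021) were tested with limma 3.58.1 (R 4.3.3) on log2 of the value plus 1, with a trended prior variance, no covariates and Benjamini-Hochberg adjustment, called under 0.05. Samples were grouped by title, and replicates numbered in order of deposit. The members and lists were chosen with earlier results of these data known, so no list's count is independent evidence of its direction. The 51 lists held 881 genes, of which 879 were matched, 4 by a synonym; in them 270 of 797 tested genes passed. Named genes were Cd36, the 15 largest rises and falls with ranges apart and a mean of 50 or more in whichever group was higher (predicted genes passed over), up to 5 passed members of lowest p per list (2 of lowest p where none passed) and a fixed set; others stand as members of a list whose counts are given. Of 214 such genes 190 passed. Not every gene so named is described.

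Alternatives were pseudocounts of 0.5 and 5, no filter, a filter at 50, upper-quartile and library-total rescaling, a fit to all 11 libraries, library weights, edgeR 4.0.16 (quasi-likelihood, TMM) and DESeq2 1.42.0 on recovered reads, and libraries left out. On simulated data, limma recovered 70 of 99 genes changed by 1 and 94 of 100 changed by 2 on the log2 scale, and called 7 unchanged genes. The simulation drew each gene independently, without a library-wide departure like that of CM KO library 1. Its figures therefore describe such simulated data only. Promoter windows are from RefSeq, all 3 matched by symbol.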

Additional observations from a re-analysis of the deposited data

How the results depend on the processing

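No gene that passed changed direction under any of the 17 alternatives. The group ranges of all 1847 did not overlap, so most alternatives could not have turned a sign. These were the libraries left out, library weights, pseudocounts, filters and the fit to all 11 libraries. Only the rescalings, edgeR and DESeq2 could have done so. The 1847 genes became 1671 with no filter, 1703 with a filter at 50, 1812 and 1907 with pseudocounts of 0.5 and 5, 1970 with edgeR, 2057 with DESeq2, 2479 with all 11 libraries and 3162 with library weights (1699 higher, 1463 lower). Library-total rescaling gave 1585 higher and 521 lower (75.3% higher), and upper-quartile rescaling 1449 and 278 (83.9%), against 56.5% in the authors' scaling. Leaving out 1 library gave 751 to 1949 genes, 491 to 1019 higher and 260 to 930 lower, and 132 to 288 list genes instead of 270, fewest without EC KO library 2. Without library 1 of both groups, 1803 passed, 315 of them list genes. Of 190 named calls 114 to 179 held with 1 library left out, 145 under upper-quartile and 175 under library-total rescaling, 189 with library weights, 188 with DESeq2 and 187 with edgeR.

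Cd36 kept its sign throughout, and as its group ranges did not overlap either, only the rescalings, edgeR and DESeq2 could have turned it. It passed with DESeq2 (-0.51), edgeR (-0.51), library weights (-0.39), all 11 libraries (-0.52), a filter at 50 (-0.52) and without library 1 of both groups (-0.32), and it ranged from -0.60 to -0.38 with 1 library left out, passing without CM KO library 1 (-0.38) or 2 (-0.60). Signs turned for genes that did not pass: Fabp3 (0.008, upper quartile), Fabp4 (0.17 with weights, 0.10 and 0.12 under library-total and upper-quartile rescaling, -0.181 to 0.15 with libraries left out), Plin2 (0.067 and 0.09 under those rescalings, -0.14 to 0.048 with libraries left out) and Pdk4 (-0.428 to 0.075 with libraries left out). Genes given by value that did not pass and turned under at least 1 alternative were also Myl4, Myh11, Mertk, H2-K1, H2-D1, B2m, Lipe, Gapdh, Pgk1, Ldha, Esrra, Eif2s3y and Kdm5d. The cause was not tested. No paired analysis was possible because the title numbers are unique to each library. The 2268403 reads of EC KO library 1 limit low genes most.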

Other observations

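Outside the gene lists, and chosen after their values were seen, 3 genes in one stretch of chromosome 2 were higher in CM KO. Gm14085, a predicted gene, was at 0 in all EC KO libraries and read 39.3, 39.5 and 32.7 in CM KO (limma, adjusted p = 0.0017). A count of 0 allows up to 18.1 in EC KO library 1 and at most 2.65 in the others. Duoxa1, which matures the hydrogen peroxide-producing enzyme Duox1, read 0, 3.34 and 3.54 in EC KO and 32.4, 24.0 and 21.3 in CM KO (3.29 ± 0.67, adjusted p = 0.0151), a call lost without CM KO library 3 (3.42). Gatm, which makes the first step of creatine synthesis, read 6.04, 26.8 and 18.6 and 144, 80.9 and 82.6 (2.67 ± 0.48, adjusted p = 0.0101). Slc28a2, a nucleoside transporter between them, was lower in CM KO (-0.63 ± 0.11, adjusted p = 0.0082).

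Also chosen after their values were seen were 2 genes just short of the largest falls. Fah, the last enzyme of tyrosine breakdown, read 1239, 1291 and 1248 in EC KO and 224, 348 and 431 in CM KO (-1.96 ± 0.20, adjusted p = 0.0017). Ift81, a subunit of the transport particle of cilia, read 1952, 1851 and 1417 and 369.5, 472 and 482 (-1.97 ± 0.15, adjusted p = 0.000399). Both genes had groups far apart in all 6 libraries.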
